A study of Homo sapiens with 6 samples.

Results

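Glycolysis, the release of lactate and the entry of pyruvate into mitochondria were described through 36 genes. These genes were chosen by name as the transporters, enzymes and regulators of these steps, with earlier results of these data known. All 36 were among the 28265 genes counted in each library, and all 36 passed the low-count filter that left 14315 genes for testing. The libraries came from LN229, an established human glioblastoma cell line grown in serum-containing medium. The control group (3 libraries) carries the genotype label WT, and its titles hold the unexplained letters NC. The other group (3 libraries) carries the genotype label TRIM25 knockdown, and the series design names shTRIM25, a short hairpin RNA, as the agent. The labels do not give the number of hairpins or clones, nor whether each library is a culture of its own. The p-values therefore describe the spread between these libraries, which may be technical. All cells of both groups are LN229, and no other allele, agent or time point is given.

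Glucose enters cells through facilitative transporters, is trapped by hexokinases and is split by the enzymes of glycolysis into pyruvate, with a net gain of ATP and NADH. Phosphofructokinase is the main control point, and fructose 2,6-bisphosphate, made and removed by the PFKFB enzymes and TIGAR, is its strongest activator. Pyruvate is either reduced to lactate and exported by monocarboxylate transporters, or carried into mitochondria and oxidised by the pyruvate dehydrogenase complex, which PDK kinases switch off. Glioblastoma cells are known for high glycolytic activity, and many of these genes are known targets of the hypoxia-inducible factors.

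TRIM25, the gene named by the label, was higher where the label gives a knockdown. It stood at 35.3, 35.8 and 35.6 CPM (counts scaled to a common library size) in the controls. In the libraries labelled knockdown the values were 80.3, 79.98 and 88.5 CPM, which is 2.34-fold higher (log2 1.22 ± 0.07, SE; edgeR adjusted p = 3.23e-09). The groups are therefore named by their labels throughout. Differences have the control as the reference, and since TRIM25 goes against the label, no direction below says what less TRIM25 mRNA does. Total counts ranged from 11349865 to 16404725 per library. Of 7 glioma markers, VIM, NES, CD44, SOX2 and S100B had mean levels above 100 CPM in both groups, while GFAP had between 2 and 8 counts per library. SOX2, OLIG2 and S100B fell (log2 -0.66, -0.67 and -0.33), NES rose (0.27), and VIM and CD44 did not pass. The gene CDKN2A, known to be deleted in LN229, had 0 or 1 count per library. Of 12 markers of other cell types, PTPRC, CD3E, PECAM1, CDH5, RBFOX3 and EPCAM had at most 9 counts in any library. The summed level of those 12 was 128 to 137 CPM in the controls and 140.4 to 162 CPM in the libraries labelled knockdown, mostly from KRT18 and CD68. CD68, a lysosomal gene that such a line can express itself, stood at 44.9 CPM in the controls and 63.3 CPM in the other group (log2 0.49). COL1A1 and PDGFRB, known from fibroblasts and pericytes, fell from 5.33 to 3.55 CPM and from 9.48 to 7.36 CPM (log2 -0.56 and -0.37). The part of these markers in the results below was not tested. These are bulk libraries, in which fewer cells of a type and less RNA per cell cannot be told apart.

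Most steps of the pathway were lower in the libraries labelled knockdown. Of the 36 genes 19 fell, 2 rose and 15 did not pass an edgeR adjusted p of 0.05. Over all tested genes 11.0% fell and 12.2% rose (23.3% called in either direction), against 52.8% and 5.56% of the 36. The median log2 fold change was -0.18 for the 36 genes and -0.0038 for all tested genes. A total of 31 genes had a value below 0, as had 50.8% of all tested genes. In 29 of the 36 genes the CPM values of the groups did not overlap, against 37.3% of all tested genes (19.0% with the libraries labelled knockdown lower). Abundant genes are called more often. Among genes with a mean of at least 100 CPM 32.4% were called, 14.5% lower and 17.9% higher, and of the 22 members at that level 15 fell and 1 rose. At that level 21 of the 22 members lay below 0, against 48.4% of genes, and 19 did not overlap between groups, against 44.4%. The trunk from the glucose transporters to PKM held 17 members, of which 12 fell, 0 rose and 5 did not pass (median log2 fold change -0.26). Across all tested genes the fold change followed gene length and GC content (Spearman's rho 0.30 and -0.26). The 36 genes had a median length of 3611 bp and a median GC content of 51.1%, close to the 3592 bp and 49.7% of all tested genes. The likeness did not hold for all parts: the 17 trunk members had a median GC content of 55.7%. The 22 members with at least 100 CPM had medians of 3496.5 bp and 54.1%, against 4220.5 bp and 49.2% for all tested genes at that level. With the length trend removed in each library 23 fell and 3 rose, where 13.3% of all genes fell and 12.3% rose. With length and GC trends removed 24 fell and 3 rose, where 16.9% of all genes fell and 15.7% rose.

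**Figure D1:**
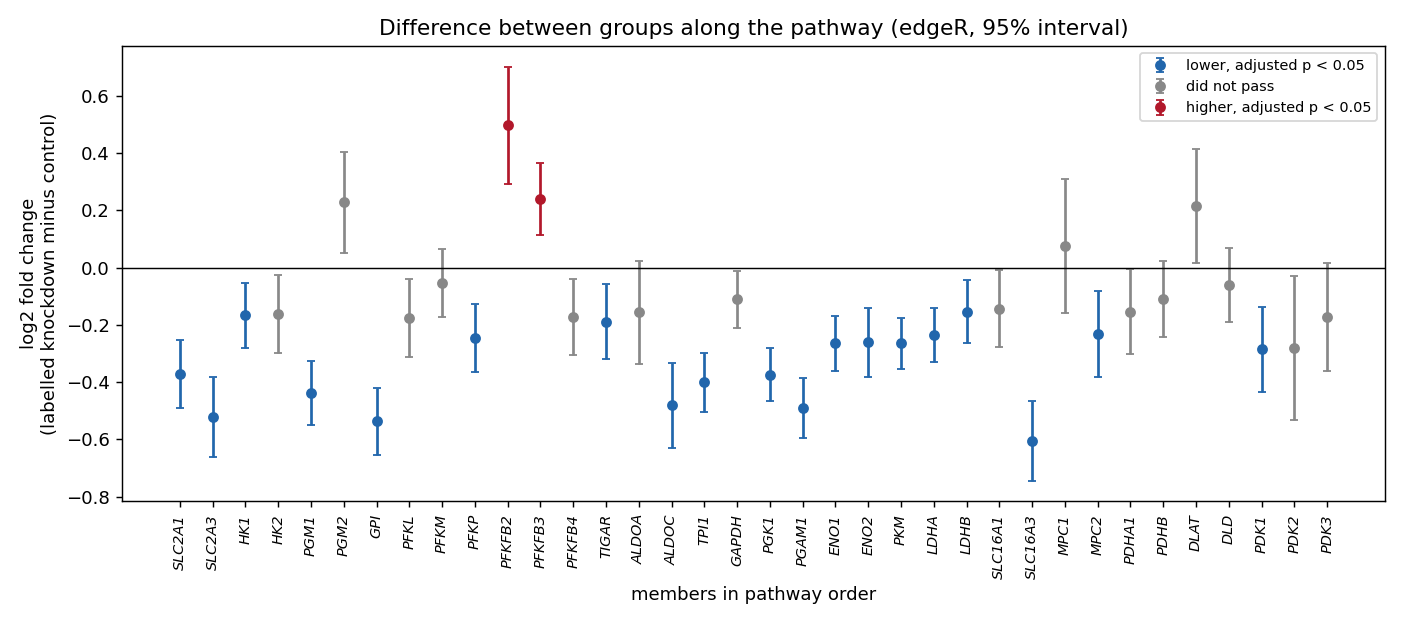
Log2 fold change (labelled knockdown minus control) of the 36 genes in pathway order, with 95% intervals from edgeR; colours give the call at an adjusted p of 0.05. The genes that fell run from the glucose transporters to PDK1, with SLC16A3 lowest at -0.61, and the 2 that rose, PFKFB2 and PFKFB3, stand side by side.

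To show the sequence next to the differences, promoters of a few members are given, from 250 bases before to 50 bases after the start annotated by RefSeq (GRCh38.p14, the build of that table and not of the counts). GPI, ALDOC and PGK1 fell and have a single start in the table, and PFKFB3, which rose, has 2 starts. Which start the cells use was not measured. Capitals mark the letters ACGTG and GCGTG on either strand (CACGT and CACGC on the reverse), the core that hypoxia-inducible factors are known to bind. GPI, ALDOC and PGK1 are examples that all hold ACGTG. Of the other members that fell and have a single start, ENO2 and TIGAR hold it too. SLC2A1, PGAM1, ENO1, PKM and LDHB do not.
GPI, chr19:34364742-34365041, plus strand: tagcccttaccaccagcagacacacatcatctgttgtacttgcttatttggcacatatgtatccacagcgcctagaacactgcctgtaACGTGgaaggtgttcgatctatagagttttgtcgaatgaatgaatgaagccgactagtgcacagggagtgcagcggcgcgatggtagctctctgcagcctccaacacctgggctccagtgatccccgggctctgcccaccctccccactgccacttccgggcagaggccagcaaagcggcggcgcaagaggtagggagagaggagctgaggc
ALDOC, chr17:28576846-28577145, minus strand: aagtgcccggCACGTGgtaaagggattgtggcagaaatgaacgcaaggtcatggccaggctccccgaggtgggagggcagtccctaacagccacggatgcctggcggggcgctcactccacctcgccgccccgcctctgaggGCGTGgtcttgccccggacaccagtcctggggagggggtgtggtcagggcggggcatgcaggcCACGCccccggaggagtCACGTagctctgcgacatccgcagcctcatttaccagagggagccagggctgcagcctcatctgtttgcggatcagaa
PGK1, chrX:78103998-78104297, plus strand: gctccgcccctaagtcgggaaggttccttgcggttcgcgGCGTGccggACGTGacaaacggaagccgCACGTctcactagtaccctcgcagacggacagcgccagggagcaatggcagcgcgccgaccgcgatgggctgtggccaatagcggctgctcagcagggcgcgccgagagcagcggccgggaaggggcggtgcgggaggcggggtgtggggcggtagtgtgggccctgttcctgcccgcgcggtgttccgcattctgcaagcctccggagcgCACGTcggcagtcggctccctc
PFKFB3, first start, chr10:6144671-6144970, plus strand: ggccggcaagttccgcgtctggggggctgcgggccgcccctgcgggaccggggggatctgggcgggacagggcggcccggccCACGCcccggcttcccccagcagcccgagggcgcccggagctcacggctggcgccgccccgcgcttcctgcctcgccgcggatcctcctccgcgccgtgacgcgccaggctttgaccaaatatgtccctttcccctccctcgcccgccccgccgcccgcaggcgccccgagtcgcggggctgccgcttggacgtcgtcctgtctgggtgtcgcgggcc
PFKFB3, second start, chr10:6202682-6202981, plus strand: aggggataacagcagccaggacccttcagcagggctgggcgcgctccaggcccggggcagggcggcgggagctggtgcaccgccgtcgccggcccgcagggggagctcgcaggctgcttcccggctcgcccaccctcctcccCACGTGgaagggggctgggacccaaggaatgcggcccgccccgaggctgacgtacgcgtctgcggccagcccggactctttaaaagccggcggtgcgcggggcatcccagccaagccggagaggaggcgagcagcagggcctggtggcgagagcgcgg
ALDOC and the second PFKFB3 start also hold the E-box CACGTG, which reads ACGTG on both strands. The table holds promoters for 33 of the 36 genes (66 starts). ACGTG was present in 28.9% of the 38 promoters of genes that fell, in 14 of the 28 promoters of the other members and in 25.3% of the 16010 promoters of tested genes. GCGTG was present in 44.7%, 46.4% and 48.0% of these, and CACGTG in 2 of 38, 7 of 28 and 9.26%. Counted by start, the share of promoters with ACGTG was lower in members that fell than in the other members. It was near that of tested genes, without a test. A gene with several starts counts once for each, and 19 of the 33 genes have 1 start. HK1, which fell, has several starts and ACGTG in none of them, so these shares do not compare genes. A match of letters is a description of the sequence and shows no binding.

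Both glucose transporter genes fell. SLC2A1 (GLUT1), the common basal transporter, stood at 225, 233 and 234 CPM in the controls and at 184, 179 and 172 CPM in the libraries labelled knockdown (log2 -0.37 ± 0.06, SE; adjusted p = 0.000158). SLC2A3 (GLUT3), a high-affinity transporter best known from neurons, stood at 75.7, 73.5 and 71.6 CPM against 49.0, 53.2 and 51.6 CPM (log2 -0.52 ± 0.07, SE; adjusted p = 2.83e-05). In both genes every library labelled knockdown was below every control. SLC2A14, a near copy of SLC2A3, had 3 to 11 counts per library, so few reads were placed there.

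The hexokinases, which phosphorylate glucose, differed little. HK1 stood at 299, 283 and 282 CPM in the controls and at 257, 255 and 257 CPM in the libraries labelled knockdown (log2 -0.17 ± 0.05, SE; adjusted p = 0.0317). Leaving out a library ended the HK1 call for control replicates 1, 2 and 3 (adjusted p = 0.106, 0.0964 and 0.0748) and for labelled knockdown replicates 2 and 3 (0.132 and 0.0537). HK2, the hexokinase often induced in tumours, stood at 128, 117 and 114 CPM against 103, 107 and 110.5 CPM. Its groups also did not overlap, but the log2 fold change of -0.16 (95% interval -0.30 to -0.03) did not pass (adjusted p = 0.0774). It did pass with length offsets (-0.22, adjusted p = 0.0030).

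The next step showed larger differences. GPI, which converts glucose 6-phosphate to fructose 6-phosphate, stood at 671, 661 and 716 CPM in the controls and at 493, 441 and 478 CPM in the libraries labelled knockdown. This was 1.45-fold lower (log2 -0.54 ± 0.06, SE; adjusted p = 3.31e-06), and the gap between the groups was wider than the spread within either. PGM1, the main phosphoglucomutase that links this pool to glycogen, stood at 292, 289 and 289 CPM against 218, 213 and 212 CPM (log2 -0.44 ± 0.05, SE; adjusted p = 1.65e-05). PGM2, which acts mainly on pentose phosphates, lay the other way at 20.001, 22.6 and 20.2 CPM against 23.6, 24.5 and 25.3 CPM. Its log2 fold change of 0.23 (95% interval 0.05 to 0.41) did not pass (adjusted p = 0.0590), but passed without labelled knockdown replicate 1 (adjusted p = 0.0232).

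Of the phosphofructokinase genes 1 of 3 fell. PFKP, the platelet isoform and per length the most abundant of the 3, stood at 349, 331 and 340.0 CPM in the controls and at 304, 279 and 278 CPM in the libraries labelled knockdown (log2 -0.25 ± 0.06, SE; adjusted p = 0.00443). PFKL, the liver isoform, stood at 166, 179.7 and 170.3 CPM against 166, 146 and 145 CPM, and labelled knockdown replicate 1 lay just above the lowest control (log2 -0.18 ± 0.06, SE; adjusted p = 0.0594). Without that library PFKL passed (-0.23, adjusted p = 0.00241). PFKM, the muscle isoform, stood at 142, 144 and 145 CPM against 139.5, 137 and 139.6 CPM. The groups were apart by little (log2 -0.05, 95% interval -0.17 to 0.07; adjusted p = 0.538).

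The enzymes that set fructose 2,6-bisphosphate held both genes that rose. PFKFB2, a bifunctional kinase and phosphatase gene, stood at 24.2, 20.7 and 19.5 CPM in the controls and at 27.1, 30.5 and 33.1 CPM in the libraries labelled knockdown. It rose 1.41-fold (log2 0.50 ± 0.10, SE; adjusted p = 0.00146), and by 0.36 with length offsets (adjusted p = 0.00153; gene length 9144 bp). PFKFB3, the isoform with the highest kinase relative to phosphatase activity, stood at 125, 113 and 119.8 CPM against 143, 142 and 139 CPM (log2 0.24 ± 0.06, SE; adjusted p = 0.00800). All libraries labelled knockdown were above the controls in both genes. Leaving out control replicate 2 ended the PFKFB3 call (adjusted p = 0.0776). PFKFB4 lay the other way, at 91.3, 84.6 and 87.7 CPM against 79.5, 76.6 and 77.7 CPM, and did not pass (log2 -0.17 ± 0.06, SE; adjusted p = 0.0545) except without labelled knockdown replicate 1 (0.0283) and with length offsets (0.0199) among other settings. TIGAR, a phosphatase that lowers fructose 2,6-bisphosphate, stood at 81.8, 85.0 and 81.1 CPM against 71.2, 72.2 and 73.9 CPM (log2 -0.19 ± 0.06, SE; adjusted p = 0.0363). Leaving out control replicate 1, 2 or 3 ended the TIGAR call (adjusted p = 0.0630, 0.164 and 0.0872), as did leaving out labelled knockdown replicate 2 (0.134). With all libraries, 6 of 9 other settings kept the TIGAR call, and its log2 fold change ran from -0.31 to -0.18 over these 9.

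**Figure D2:**
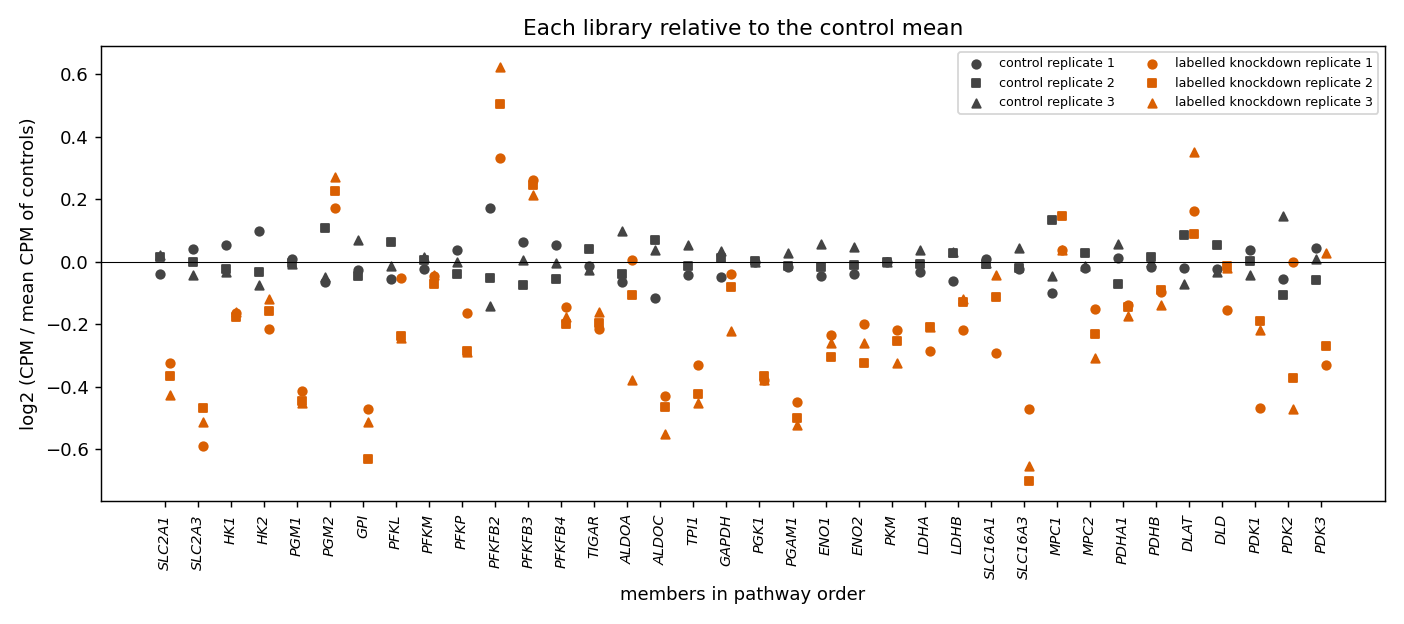
Level of each gene in each library, as log2 of its CPM over the mean CPM of the 3 controls; grey symbols are controls, orange symbols libraries labelled knockdown, and shapes give the replicate number. PGK1 and PGM1 show tight groups, while GAPDH, ALDOA, PDK2 and PDK3 overlap between groups.

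In the lower part of glycolysis TPI1, PGK1, PGAM1, both enolases and PKM fell, and GAPDH did not pass. TPI1, which interconverts the triose phosphates, stood at 1643, 1677 and 1754 CPM in the controls and at 1344, 1263 and 1237 CPM in the libraries labelled knockdown (log2 -0.40 ± 0.05, SE). PGK1, the first ATP-forming step, stood at 1455, 1458 and 1456 CPM against 1119.7, 1131 and 1122 CPM (log2 -0.37 ± 0.04, SE). The spread within each PGK1 group (SD 1.82 and 6.02 CPM) was small against the gap between the means of 1456 and 1124 CPM. PGAM1, the phosphoglycerate mutase, stood at 571, 572 and 588 CPM against 423, 408 and 402 CPM (log2 -0.49 ± 0.05, SE). The adjusted p values of TPI1, PGK1 and PGAM1 were 1.96e-05, 1.45e-05 and 2.97e-06.

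ENO1, the ubiquitous enolase, stood at 2358, 2405 and 2529 CPM in the controls and at 2069, 1969.6 and 2031 CPM in the libraries labelled knockdown (adjusted p = 0.000528). ENO2, the neuronal enolase, stood at 229, 234 and 244 CPM against 205, 188 and 197 CPM (adjusted p = 0.00343). Each fell by 0.26 on the log2 scale. PKM, the pyruvate kinase gene whose splice forms M1 and M2 are not told apart by these counts, stood at 4323, 4329.6 and 4326 CPM against 3722, 3627 and 3455 CPM (log2 -0.26 ± 0.04, SE; adjusted p = 0.000288).

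GAPDH, the most abundant of the 36 genes and a common reference gene in expression assays, stood at 7821, 8150.1 and 8285 CPM in the controls and at 7879, 7653 and 6934 CPM in the libraries labelled knockdown. Its groups overlapped, with labelled knockdown replicate 1 inside the control range. The log2 fold change was -0.11 (95% interval -0.21 to -0.01; adjusted p = 0.102). It was -0.14 and passed without that library (adjusted p = 0.0133), and it was -0.0047 with length and GC offsets (adjusted p = 0.923). GAPDH made up 31.2% to 31.9% of the counts of the 36 genes in the controls and 32.8% to 35.2% in the libraries labelled knockdown. The other 35 genes together took 17252 to 17743 CPM in the controls and 14182 to 14516 CPM in the other group, so their summed levels did not overlap.

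The aldolase step is uncertain. ALDOC, the brain isoform, fell from 74.8, 85.1 and 83.2 CPM to 60.2, 58.8 and 55.3 CPM (log2 -0.48 ± 0.07, SE; adjusted p = 0.000115). ALDOA, the ubiquitous isoform, stood at 69.8, 71.0 and 78.2 CPM against 73.3, 67.9 and 56.2 CPM, and its groups overlapped (log2 -0.16 ± 0.09, SE; adjusted p = 0.201). Without labelled knockdown replicate 1 ALDOA passed (-0.24, adjusted p = 0.0150). Per length ALDOA was at 18.5 CPM per kb in the controls, where its neighbour in the pathway TPI1 was at 910.3 CPM per kb. The span of another gene in the table, LOC112694756, covers 99.9% of the RefSeq span of ALDOA, and 244 reads were assigned to it over the 6 libraries against 5889 to ALDOA. How reads that fit both genes were counted is not given in the sources used here, so the level of ALDOA and its share of aldolase cannot be read from these counts.

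Per length the levels spanned a wide range along the pathway. GAPDH stood at 4671 CPM per kb in the controls, followed by PKM at 1199, TPI1 at 910.3, LDHA at 887 and ENO1 at 769 CPM per kb. TPI1 and LDHA are neighbours in this order and lay within their spread of each other (SD 30.7 and 21.95 CPM per kb). LDHB, PGK1 and PGAM1 followed at 350.1, 303 and 281 CPM per kb. At the low end were PFKFB2 at 2.35, PDK3 at 2.88 and PDK2 at 3.83 CPM per kb. Across the 36 genes Spearman's rho between the control level per length and the log2 fold change was -0.45. With GC content it was -0.38 and with gene length 0.16. These are descriptions over genes that share the same libraries.

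**Figure D3:**
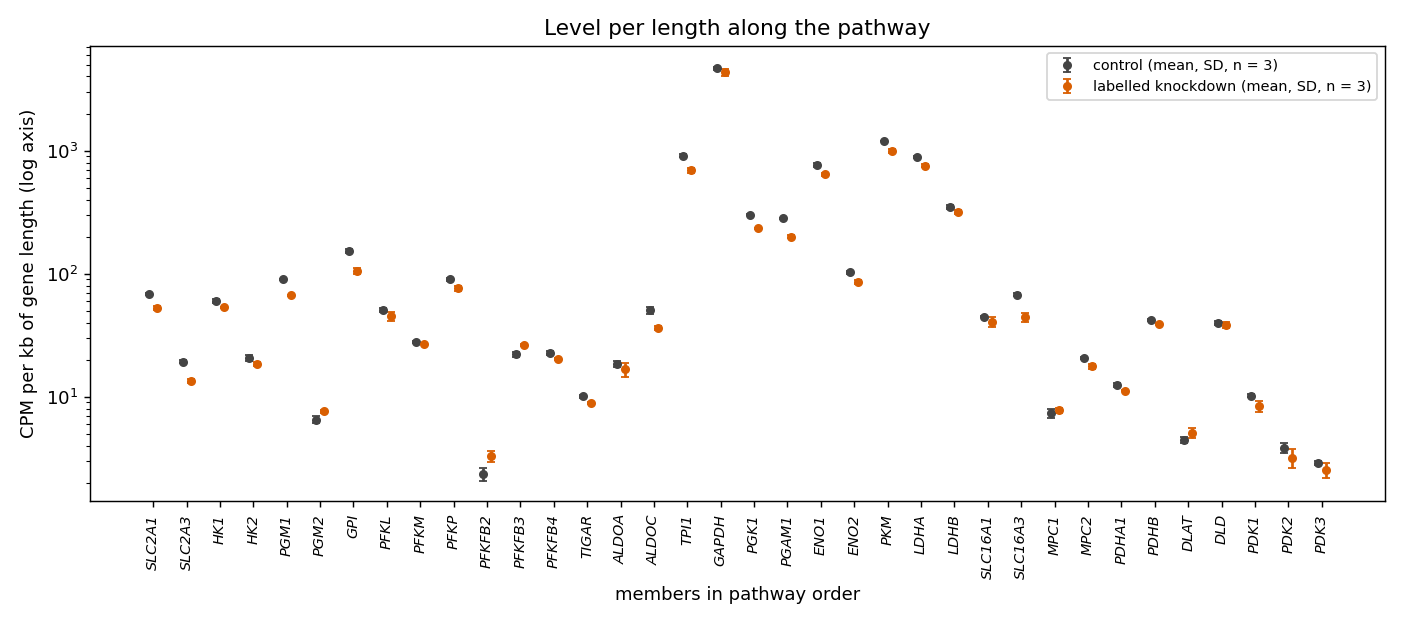
Mean level of each gene per length (CPM per kb of gene length, log axis) in the controls (grey) and in the libraries labelled knockdown (orange), with SD over 3 libraries each. Levels run from GAPDH at 4671 CPM per kb in the controls down to PFKFB2 at 2.35 CPM per kb.

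On the lactate side, LDHA, which favours the reduction of pyruvate, stood at 2395, 2436 and 2514 CPM in the controls and at 2011, 2117 and 2119 CPM in the libraries labelled knockdown (log2 -0.23 ± 0.04, SE; adjusted p = 0.00124). LDHB, which favours the reverse reaction, stood at 537, 571 and 572 CPM against 482, 512 and 516 CPM (log2 -0.15 ± 0.05, SE; adjusted p = 0.0431). The LDHB call was lost with length offsets (-0.06, adjusted p = 0.375). Leaving out control replicate 2 or 3 ended it too (adjusted p = 0.180 and 0.170), as did leaving out labelled knockdown replicate 1 or 2 (0.0769 and 0.113).

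SLC16A3 (MCT4), the transporter best known for exporting lactate from glycolytic cells, had the lowest log2 fold change of the 36 genes in the group-only fit. With length and GC offsets its value was -0.50, and SLC2A3 (-0.54) and GPI (-0.51) lay lower. With length offsets alone GPI and SLC16A3 both stood at -0.56. SLC16A3 stood at 165, 165 and 173 CPM in the controls and at 121, 103 and 107 CPM in the libraries labelled knockdown, 1.52-fold lower (log2 -0.61 ± 0.07, SE; adjusted p = 5.7e-06). SLC16A1 (MCT1), which moves lactate in either direction, stood at 203, 201 and 202 CPM against 165, 187 and 197 CPM. Its groups did not overlap, but the libraries labelled knockdown were spread widely and it did not pass (log2 -0.14 ± 0.06, SE; adjusted p = 0.119). Without labelled knockdown replicate 3 SLC16A1 passed (-0.20, adjusted p = 0.0403), as it did with length offsets (adjusted p = 0.0192).

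At the entry into mitochondria the differences were small. MPC1 and MPC2 form the mitochondrial pyruvate carrier together. MPC1 stood at 9.31, 10.95 and 9.68 CPM in the controls and at 10.2, 11.05 and 10.2 CPM in the libraries labelled knockdown, with overlapping groups (log2 0.08, 95% interval -0.16 to 0.31). MPC2 stood at 47.4, 49.0 and 47.6 CPM against 43.2, 40.9 and 38.8 CPM (log2 -0.23 ± 0.07, SE; adjusted p = 0.0253). Leaving out control replicate 2 or 3 ended the MPC2 call (adjusted p = 0.113 and 0.0740), as did leaving out labelled knockdown replicate 2 or 3 (0.0937 and 0.0993). None of the 4 pyruvate dehydrogenase complex genes passed with edgeR, although 2 of them, PDHA1 and DLAT, had an unadjusted p under 0.05 (0.0443 and 0.0342). PDHA1 and PDHB, the subunits of the first enzyme, had log2 fold changes of -0.15 and -0.11, and DLD, the dehydrogenase shared with other complexes, of -0.06. DLAT, the acetyltransferase core, stood at 17.1, 18.4 and 16.5 CPM against 19.4, 18.5 and 22.1 CPM (log2 0.22 ± 0.09, SE; adjusted p = 0.106) and passed without labelled knockdown replicate 1 (0.25, adjusted p = 0.0477). With DESeq2 and with limma-voom 0 of these 4 genes passed, and DLD passed with length and GC offsets (-0.11, adjusted p = 0.0264).

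Of the kinases that inactivate this complex, PDK1, a known hypoxia target, stood at 159.6, 156 and 151 CPM in the controls and at 112, 136 and 133 CPM in the libraries labelled knockdown (log2 -0.29 ± 0.07, SE; adjusted p = 0.00739). With length offsets the PDK1 value was -0.45, and its gene model is 15239 bp long. PDK2 stood at 15.4, 14.9 and 17.7 CPM against 15.99, 12.4 and 11.5 CPM (log2 -0.28 ± 0.12, SE; adjusted p = 0.1004). PDK3 stood at 39.1, 36.4 and 38.2 CPM against 30.2, 31.5 and 38.6 CPM (log2 -0.17 ± 0.09, SE; adjusted p = 0.176). Both overlapped through a single library labelled knockdown, replicate 1 for PDK2 and replicate 3 for PDK3. PDK2 passed without labelled knockdown replicate 1 (-0.42, adjusted p = 0.00372). PDK3 passed without labelled knockdown replicate 3 (-0.30, adjusted p = 0.0173) and with length offsets (-0.34, adjusted p = 0.00182).

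The balance within 15 pairs of genes was compared within libraries, as the log2 ratio of counts per length, which does not depend on library size. Isozymes make up the pairs, except that MPC2 and MPC1, and PDHB and PDHA1, are subunits of the same carrier or enzyme. PGM2 and PGM1 differ in their main substrate. The lengths within a pair differ by a ratio of 0.27 to 1.71, and dividing by length does not remove the length trend of the fold changes. With 3 libraries against 3 the exact two-sided permutation test cannot go below p = 0.10, and after Benjamini-Hochberg adjustment over the 15 pairs the smallest value was 0.214, so no pair can pass a threshold of 0.05. The largest difference was in PGM2 over PGM1, where PGM2 made up 6.43%, 7.26% and 6.57% of the pair in the controls and 9.80%, 10.3% and 10.7% in the libraries labelled knockdown (log2 ratio higher by 0.66; exact p = 0.10). SLC16A3 made up 59.6%, 59.8% and 60.9% of the pair with SLC16A1 in the controls and 57.0%, 50.03% and 49.6% in the other group (log2 ratio -0.46; exact p = 0.10). The lowest control lay above the highest library labelled knockdown, but replicate 1 was close to the controls, and without it the difference was -0.60.

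PFKFB3 made up 49.5%, 49.0% and 49.4% of the pair with PFKFB4 in the controls and 56.3%, 57.0% and 56.1% in the libraries labelled knockdown (log2 ratio 0.41; exact p = 0.10). Here the spread within each group was small against the gap between them. MPC2 over MPC1 was lower by 0.31, SLC2A3 over SLC2A1 by 0.15 and LDHB over LDHA higher by 0.08 (exact p = 0.10 each), and these groups did not overlap either. ALDOC over ALDOA was lower by 0.32 but carries the doubt about ALDOA counts.

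The other 8 pairs had overlapping groups, with differences of unequal size. HK2 made up 26.3%, 25.6% and 25.2% of the hexokinase pair in the controls and 25.03%, 25.9% and 26.3% in the libraries labelled knockdown (log2 ratio 0.0047; exact p = 0.90). ENO2 made up 11.8%, 11.8% and 11.7% of the enolase pair against 12.01%, 11.6% and 11.8% (log2 ratio 0.0038; exact p = 0.90). PDHB over PDHA1 differed by 0.04 (exact p = 0.40). PFKP over PFKL (-0.07), PFKM over PFKL (0.12), PFKFB3 over PFKFB2 (-0.25), PDK2 over PDK1 (0.02) and PDK3 over PDK1 (0.10) make up the rest.

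**Figure D4:**
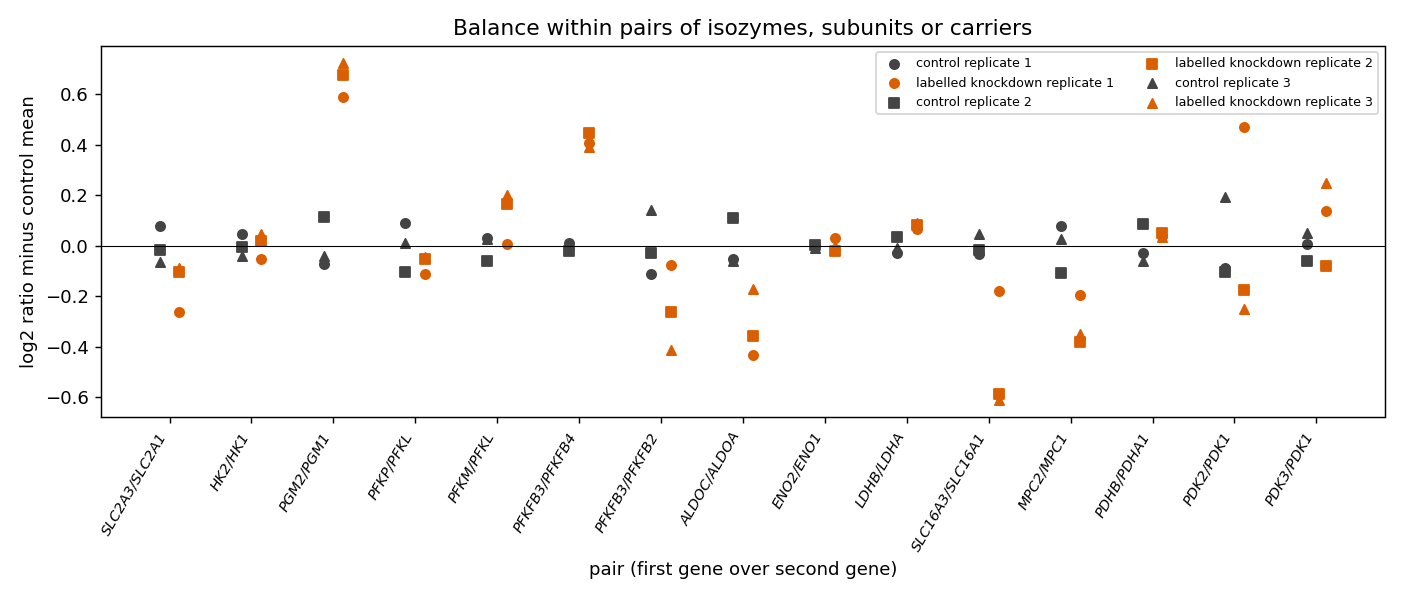
Log2 ratio of counts per length between the genes of 15 pairs, in each library, minus the mean of the controls; grey symbols are controls and orange symbols libraries labelled knockdown. PGM2/PGM1 lies highest, SLC16A3/SLC16A1 lowest with replicate 1 nearer to the controls, and HK2/HK1 and ENO2/ENO1 lie near the control mean.

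Genes around the pathway were read from lists, beside shares of 11.0% lower and 12.2% higher over all tested genes. Of 23 tested rarer isozymes and partners 4 rose and 4 fell, or 17.4% each (median log2 fold change -0.05). Among these, PGAM4, a near copy of PGAM1 with which it can share reads, fell by 0.70, the transporter genes SLC2A10 and SLC2A6 fell by 0.69 and 0.49, and SLC16A7 (MCT2), a high-affinity monocarboxylate transporter, rose by 0.51 on the log2 scale. The 11 tested pentose phosphate genes had a median log2 fold change of -0.10.

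Of 15 glycogen genes 5 fell and 2 rose, or 33.3% and 13.3% (median 0.04). PPP1R3C, a glycogen-targeting phosphatase subunit, fell by 0.59, GYS1, the glycogen synthase, by 0.47 and GBE1, the branching enzyme, by 0.43 on the log2 scale. The list of 20 citrate cycle genes also held cytosolic forms such as IDH1. Of these 20 genes 5 fell and 1 rose, against the 11.0% and 12.2% of all tested genes (median -0.08). IDH2, IDH1 and SDHA fell by 0.45, 0.29 and 0.26, and SUCLA2, a succinyl-CoA ligase subunit, rose by 0.42. IDH3A, IDH3B and IDH3G did not pass (edgeR adjusted p = 0.152, 0.112 and 0.0664). Calls of genes not named here held in as few as 5 of 15 alternatives.

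Of 15 regulators of glycolytic genes 1 rose and 2 fell (median 0.03), so 13.3% fell, near the 11.0% of all tested genes. HIF1A, the oxygen-regulated transcription factor gene, rose from 703 ± 26.4 to 895 ± 52.4 CPM (SD, n = 3; log2 0.35 ± 0.05, SE; adjusted p = 0.000206). TXNIP, a glucose-induced gene that limits glucose uptake, fell from 341 ± 6.05 to 264 ± 7.67 CPM (log2 -0.37, adjusted p = 9.83e-05). PPARGC1A, a coactivator of mitochondrial genes, fell from 2.42 ± 0.249 to 0.880 ± 0.311 CPM. MYC did not pass (log2 0.05, adjusted p = 0.690), nor did EPAS1 (0.07, adjusted p = 0.432). The genes named here from these lists that passed kept their calls in all 15 alternatives. HIF protein is controlled mainly by its stability, which these counts do not measure.

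Some members share exon sequence with another gene in the table, by GENCODE v29. The library kit keeps strand, but the strand setting of the counting is not given in the sources used here. On the opposite strand, MPC2 shares 575 bp with DCAF6 (log2 0.23), SLC16A3 shares 482 bp with CSNK1D (-0.09), PFKFB2 shares 315 bp with YOD1 (0.18) and PDK2 shares 2113 bp with SAMD14 (-0.29). PFKM shares 628 bp, also on the opposite strand, with SENP1, which rose (log2 0.25, edgeR adjusted p = 0.0358). PDHA1 shares 956 bp there with MAP3K15, which had 25 counts over all libraries. On the same strand, PFKFB4 shares 289 bp with UCN2, which had a log2 fold change of 0.73. Many glycolytic genes have processed copies elsewhere in the genome. The table lists TPI1P2 and TPI1P3 (492 counts together, against 127554 for TPI1) and PGAM1P5 (2 counts) under such names.

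**Figure D5:**
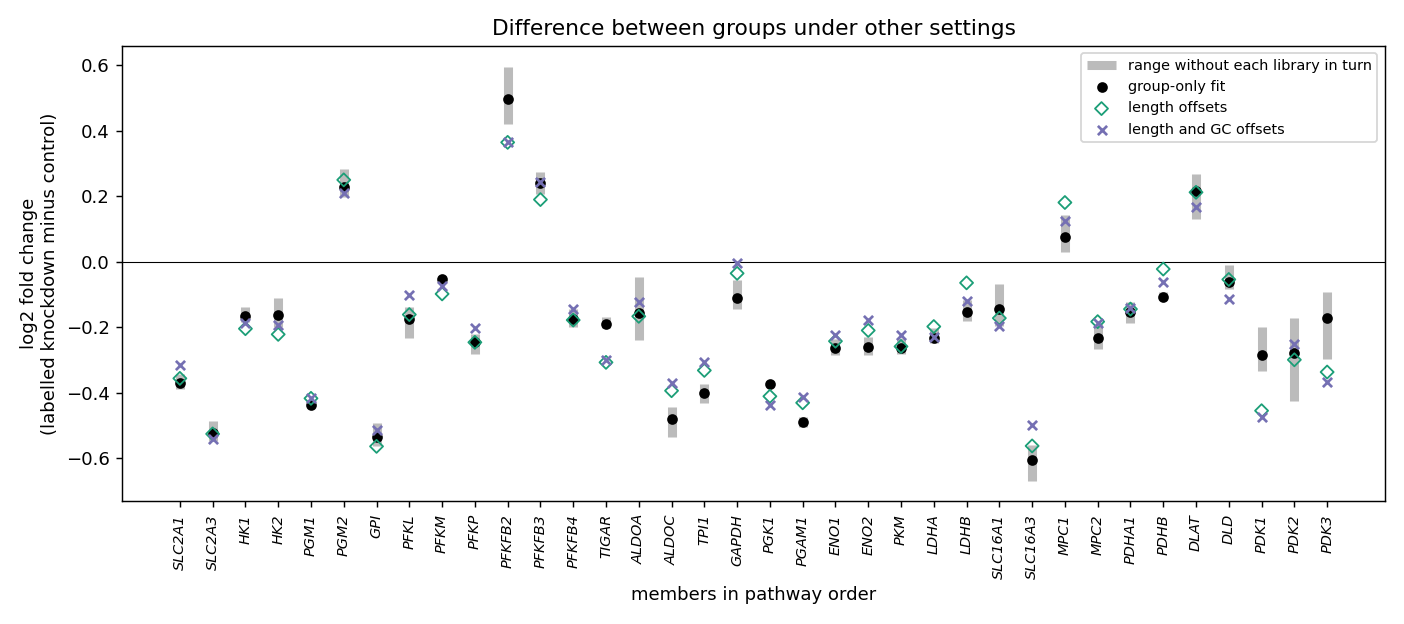
Log2 fold change of each gene in the group-only fit (black), with length offsets (green diamonds), with length and GC offsets (purple crosses) and its range when each library is left out in turn (grey bars). SLC16A3 stays between -0.67 and -0.50 over these settings, no gene changes sign, and GAPDH moves to -0.0047 with length and GC offsets.

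Of the 19 genes that fell, 15 kept their call in all 15 alternatives: the exceptions were HK1, TIGAR, LDHB and MPC2. PFKFB2 kept its call in all 15 as well. Labelled knockdown replicate 1 lay nearer to the controls than the other libraries of its group for PFKL, ALDOA, GAPDH and PDK2, among others. For SLC2A3, LDHA, LDHB, SLC16A1 and PDK1, among others, it lay farther from the controls than they did. Without labelled knockdown replicate 1, 23 of the 36 genes fell and 4 rose, where 15.9% of all genes fell and 17.9% rose.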

How the data were processed

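Total RNA of LN229 cells was sequenced in 6 libraries, grouped by their genotype label, 3 per group. Per the labels' protocols, the kit for total RNA was a stranded one. FastQC, MultiQC, Trim Galore, HISAT2 and the build hg19 are named, without versions, in the submitters' processing notes. Which program counted the reads, with which annotation and strand setting, is not given in the sources used here. The deposited tables, per the file headers, hold whole-number counts per gene symbol, neither normalised nor pooled. The authors' FPKM gave the gene lengths (whole numbers within 0.001 bp for all 21754 genes with a count), and the authors' TPM is the FPKM rescaled and was not used.

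Counts were fitted in R 4.3.3 with edgeR 4.0.16 (filterByExpr, TMM, glmQLFit and glmQLFTest with group as the only term, all 6 libraries), and p-values were adjusted by Benjamini-Hochberg over 14315 genes. CPM uses TMM-scaled library sizes. The standard error is the size of the log2 fold change over the square root of F. Length and GC offsets are smooth trends (lowess) of each library's log2 ratio to the mean of all libraries on gene length and on GC content (GENCODE v29 transcripts; 36 of 36 members matched). Ratios within pairs used a pseudocount of 0.5 counts. DESeq2 1.42.0 and limma-voom (limma 3.58.1) were among the alternatives. All 36 members are named, and up to 4 called genes of each further list, of which some are not reported here. The members, lists and tests were chosen with earlier results of these data known. The fit was tested on simulated data. No library was a copy of another: within a group the counts of any pair differed beyond sampling noise (chi-square over its degrees of freedom, 1.95 to 8.54).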

Additional observations from a re-analysis of the deposited data

How the results depend on the processing

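The number of members that fell was 19, and between 15 and 24 under the alternatives tried: 16 with DESeq2, 19 with RLE factors and with limma-voom, 22 with upper-quartile factors, 17 with no low-count filter, 23 with length offsets and 24 with length and GC offsets. Without each library in turn 15 to 23 members fell, where 5.93% to 15.9% of all genes fell. The number of members that rose was then 1 to 4, where 6.38% to 17.9% of all genes rose. The number of all genes called was 1826 to 4941, against 3330 with all libraries. With the replicate number as a block 15 members fell and 2 rose, and all genes called fell to 1891 (6.45% lower and 6.76% higher). With the block and length offsets together 20 members fell and 2 rose, where 10.1% of all genes fell and 9.43% rose. The labels do not say that a number marks a shared culture or day. Libraries that share a number showed no common deviation from their group means (correlations -0.19, 0.0082 and -0.22). Between libraries of different number the correlations ran from -0.029 to 0.22. They were highest for control replicate 3 with labelled knockdown replicate 1 (0.22) and control replicate 1 with labelled knockdown replicate 3 (0.19). Such correlations, with 3 libraries per group mean, cannot exclude a shared culture or day. No pairing was assumed in the group-only fit. Among members no log2 fold change turned its sign. Isozyme differences near 0 did: HK2 over HK1 became -0.017 with length offsets, -0.015 without control replicate 3, -0.0022 without labelled knockdown replicate 2 and -0.016 without replicate 3 (leave-one-out range -0.0159 to 0.0320). ENO2 over ENO1 became -0.00050 without control replicate 3 and -0.011 without labelled knockdown replicate 1 (range -0.0107 to 0.0163). PDK2 over PDK1 became -0.029 and -0.036 without control replicates 1 and 2 and -0.21 without labelled knockdown replicate 1 (range -0.213 to 0.147). The cause of these changes was not tested. Counting error is part of the spread of low genes such as MPC1, which had 123 to 167 counts per library.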
